A study of Homo sapiens with 22 samples.

Results

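The genes described here encode the D cyclins (CCND1, CCND2, CCND3), their kinases (CDK4, CDK6), the retinoblastoma protein (RB1) and 4 inhibitors of cyclin-dependent kinases (CDKN1A, CDKN1B, CDKN2A, CDKN2B). They are 10 of the 20037 protein-coding genes of the RefSeq table used. They were chosen by name. ChIP peaks were assigned to a gene when they lay within 1 kb of either outer end of it (gene-end peaks) or between those ends but farther away from them (inside peaks). CLIP peaks were taken by the gene symbol that accompanies them.

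The cells were THP-1, a human monocytic leukaemia line, carrying a lentivirus with a short hairpin against QKI5 (sh-QKI5) or a control hairpin (sh-control). The sample labels give this control hairpin and were followed, although the design text speaks of untreated cells. QKI5 is a nuclear form of the RNA-binding protein QKI. Chromatin immunoprecipitation (ChIP) located RNA polymerase II (Pol II) and H3K4me3, a histone modification typical of promoters in use, on DNA, and crosslinking immunoprecipitation (CLIP) located the RNA bound by QKI5. Every group had 2 samples except the knockdown ChIP inputs, which had 4, giving 22 samples in 10 groups. Each of the 6 deposited peak lists was made from both replicates of its group, so replicate spread is not known, no test of a difference was possible and no p-value compares the conditions. The depth of each sample is unknown.

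In the textbook pathway, a D cyclin binds CDK4 or CDK6, and the active kinase phosphorylates RB. Phosphorylated RB releases E2F transcription factors, which switch on genes for DNA replication. The INK4 proteins encoded by CDKN2A and CDKN2B block CDK4 and CDK6 directly, whereas the CIP/KIP proteins p21 (CDKN1A) and p27 (CDKN1B) act on cyclin-bound kinases more broadly. Monocytic cells generally leave the cell cycle as they mature.

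The start windows below place the results on sequence. They come from RefSeq on GRCh38.p14, run 5′ to 3′ from 250 bases before an annotated start to 50 bases after it, and matched 8 of the 10 genes with 12 windows. Capitals mark 3 motifs searched on both strands: the GC box GGGCGG, the E-box CACGTG and the CCAAT box CCAAT. The first 6 windows lay under H3K4me3 peaks in both conditions, all of them but the outer CCND3 window also under Pol II. The 2 INK4 windows at the end lay under no peak and are shown for contrast.

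CDK4 (chr12:57752261-57752560, minus strand): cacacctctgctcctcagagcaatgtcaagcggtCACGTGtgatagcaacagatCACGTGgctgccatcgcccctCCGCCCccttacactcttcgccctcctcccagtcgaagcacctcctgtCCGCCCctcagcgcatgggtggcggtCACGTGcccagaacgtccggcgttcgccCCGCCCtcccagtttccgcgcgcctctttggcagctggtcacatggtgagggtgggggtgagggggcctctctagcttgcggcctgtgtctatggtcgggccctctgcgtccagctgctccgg
CDK6, outer start (chr7:92836524-92836823, minus strand): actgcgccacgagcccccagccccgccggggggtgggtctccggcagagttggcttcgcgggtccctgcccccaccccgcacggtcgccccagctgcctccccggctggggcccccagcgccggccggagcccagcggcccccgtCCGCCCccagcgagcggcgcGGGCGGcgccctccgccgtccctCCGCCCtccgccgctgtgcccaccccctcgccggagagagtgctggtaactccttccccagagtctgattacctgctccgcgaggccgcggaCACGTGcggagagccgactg
CCND3, outer start (chr6:42048639-42048938, minus strand): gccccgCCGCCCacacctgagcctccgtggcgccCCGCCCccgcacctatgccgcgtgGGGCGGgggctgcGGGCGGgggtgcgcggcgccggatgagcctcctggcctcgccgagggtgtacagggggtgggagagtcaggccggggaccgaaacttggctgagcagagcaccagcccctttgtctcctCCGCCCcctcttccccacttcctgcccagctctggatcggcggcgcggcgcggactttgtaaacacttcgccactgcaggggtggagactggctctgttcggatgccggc
CCND3, inner start (chr6:41941759-41942058, minus strand): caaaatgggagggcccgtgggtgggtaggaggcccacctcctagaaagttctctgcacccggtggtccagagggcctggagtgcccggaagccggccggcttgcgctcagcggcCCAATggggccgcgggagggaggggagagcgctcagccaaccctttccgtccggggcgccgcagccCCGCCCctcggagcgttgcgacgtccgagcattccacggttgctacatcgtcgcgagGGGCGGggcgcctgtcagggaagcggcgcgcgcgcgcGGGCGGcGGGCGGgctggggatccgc
CDKN1A (chr6:36678464-36678763, plus strand): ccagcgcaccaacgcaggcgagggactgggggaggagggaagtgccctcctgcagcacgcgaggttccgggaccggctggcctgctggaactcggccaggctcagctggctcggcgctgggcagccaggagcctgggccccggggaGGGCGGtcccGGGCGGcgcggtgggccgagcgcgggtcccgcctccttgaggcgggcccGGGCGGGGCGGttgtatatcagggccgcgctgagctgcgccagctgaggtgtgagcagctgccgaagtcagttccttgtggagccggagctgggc
CDKN1B (chr12:12717118-12717417, plus strand): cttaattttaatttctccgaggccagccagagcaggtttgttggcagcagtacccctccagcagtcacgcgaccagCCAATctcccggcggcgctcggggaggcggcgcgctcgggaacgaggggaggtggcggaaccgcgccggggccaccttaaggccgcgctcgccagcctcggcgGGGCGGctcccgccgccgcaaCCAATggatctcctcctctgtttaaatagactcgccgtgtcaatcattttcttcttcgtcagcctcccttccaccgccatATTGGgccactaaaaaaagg
CDKN2A, inner start (chr9:21974808-21975107, minus strand): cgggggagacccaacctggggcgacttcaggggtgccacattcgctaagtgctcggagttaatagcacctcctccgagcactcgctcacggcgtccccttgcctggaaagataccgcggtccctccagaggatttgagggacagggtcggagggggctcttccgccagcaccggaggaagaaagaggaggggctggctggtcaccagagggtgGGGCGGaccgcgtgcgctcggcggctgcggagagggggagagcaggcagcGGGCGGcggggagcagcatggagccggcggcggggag
CDKN2B (chr9:22009256-22009555, minus strand): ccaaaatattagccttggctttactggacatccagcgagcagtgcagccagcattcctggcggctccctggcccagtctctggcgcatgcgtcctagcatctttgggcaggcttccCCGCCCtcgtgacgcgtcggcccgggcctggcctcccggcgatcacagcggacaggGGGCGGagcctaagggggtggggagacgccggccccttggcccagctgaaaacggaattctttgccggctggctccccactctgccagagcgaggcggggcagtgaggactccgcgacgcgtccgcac

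A GC box was found in 45% of all 35116 start windows, at least 3 of them in 15.8%. The CDK4 window held 3 GC boxes and 3 E-boxes. An E-box was found in 7.26% of all windows, and 33 windows (0.094%) held 3 or more. The CDKN1B window held 3 CCAAT boxes, a number reached by 3.26% of all windows, and 1 GC box. The windows of CDKN1A, of the outer CCND3 start and of the inner CCND3 start printed above held 4, 5 and 4 GC boxes, with 2 of the CDKN1A matches overlapping. The outer CDK6 window had 3 GC boxes, 1 E-box and a GC content of 78%, against a median of 58.7% over all windows. The second CDK6 window, not printed, had a GC content of 68.7% and no GC box, E-box or CCAAT box. The other windows not printed, at CCND3, CDKN2A and RB1, had no GC box or E-box either. The CDKN2A and CDKN2B windows printed above had 2 GC boxes each and GC contents of 69% and 67.3%. None of the 12 windows held TATAAA (found in 11.5% of all windows) or any of TTTGGCGC, TTTCGCGC, TTTCCCGC and TTTGCCGC, forms of the E2F site (found in 3.31%), on either strand. The only RB1 window, chr13:48476200-48476499, lay inside the gene, far from its 5′ end, and under no ChIP peak. CCND1 and CCND2 had no window. The promoters at the 5′ end of RB1 and at CCND1 and CCND2 were therefore not searched. All motif matches above describe letters in a window and not bound sites.

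Of the 10 genes, 7 had an H3K4me3 gene-end peak in both conditions, CCND1, CCND2, CCND3, CDK4, CDK6, RB1 and CDKN1B. The same class held 66.6% of all protein-coding genes. A Pol II gene-end peak was present in both conditions at 7 of the 10, against 57.6% of all genes. These 7 were CCND1, CCND3, CDK4, CDK6, RB1, CDKN1A and CDKN1B. No gene of the set had a gene-end peak of either kind in a single condition. Inside peaks of H3K4me3 were listed in both conditions at 4 genes (CCND3, CDK6, RB1 and CDKN1A), a class of 16.2% of all genes. Inside Pol II peaks were listed in both conditions at 5 genes (CCND1, CCND2, CCND3, CDK6 and CDKN1A), a class of 24.4%, and in control alone at RB1. The gene-end counts are near that background, and no test set the counts inside genes apart from it.

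A listed peak says where signal passed the caller's threshold, and its width is not an amount. In bulk cells, fewer cells carrying a mark and less of it per cell cannot be told apart. The plot of gene-end peak widths shows both conditions for each gene. Median widths were 2572 bp (control) and 2599 bp (knockdown) for H3K4me3 and 923 and 952 bp for Pol II. Most gene-end peaks of the set were wider than these medians. The medians take in all peaks of a list, wherever they lie, including 9721 of the narrowest width for Pol II in control. Gene-end widths over all genes were not set beside them, so the widths were not shown to be particular to the set. All peak coordinates below are 1-based on GRCh38.p5, the build named in the submitters' processing notes. Ranks run from the widest peak of a list, which held 21953 (H3K4me3, control), 21358 (H3K4me3, knockdown), 33370 (Pol II, control) and 35094 (Pol II, knockdown) peaks.

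**Figure D1:**
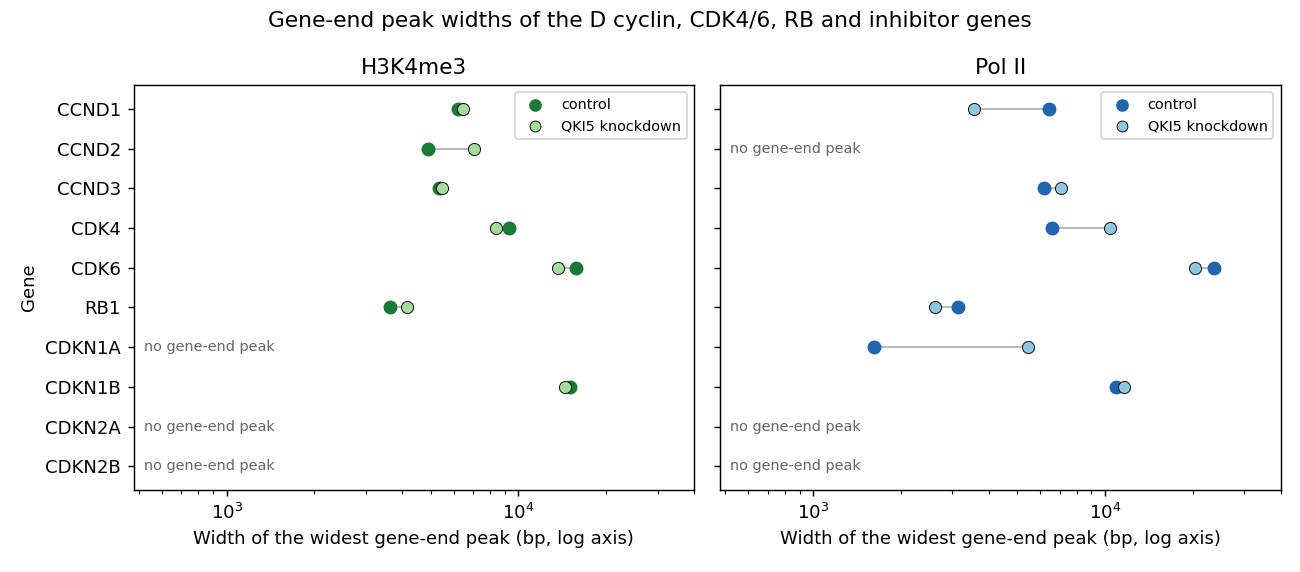
Width in bp (log axis) of the widest gene-end peak of each gene in control and QKI5 knockdown cells, for H3K4me3 and Pol II; each point is 1 pooled list. The widest H3K4me3 peaks were at CDK6 (15724 and 13676 bp) and CDKN1B (15077 and 14443 bp), and the farthest-apart pair was Pol II at CDKN1A (1622 and 5454 bp).

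Among the D cyclins, CCND1 had 1 wide H3K4me3 peak at an end of the gene, nearly the same in both conditions. It spanned chr11:69637662-69643849 in control (6188 bp) and chr11:69637611-69644087 in knockdown (6477 bp). Pol II at that end was listed over a shorter stretch in knockdown, as 1 peak of 6448 bp at chr11:69639187-69645634 in control and of 3559 bp at chr11:69640748-69644306 in knockdown. The knockdown list had a second, inside peak of 1735 bp at chr11:69644927-69646661, which overlapped the control gene-end peak. The covered sequence differed less than these widths. Over the gene and 5 kb around it, Pol II peaks covered 8577 bp in control and 7724 bp in knockdown. A peak of the minimum width, which is the same in all 4 ChIP lists and is called minimal below, lay at the other end of CCND1 in knockdown, 1016 bp from the nearest control peak. Control had 2 small inside peaks, 1 of 626 bp and 1 minimal, without a knockdown counterpart. That is common in these lists: of all Pol II peaks inside protein-coding genes, 55.9% in control and 57.3% in knockdown overlapped no peak of the other condition.

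CCND2, the D cyclin gene with a 31.6 kb span on chromosome 12, had H3K4me3 at its 5′ end without Pol II there. The H3K4me3 peak spanned chr12:4270900-4275805 in control (4906 bp), with a separate peak of 1296 bp at chr12:4268963-4270258 beside it. In knockdown a single peak of 7027 bp at chr12:4268702-4275728 took in both. The start window of the antisense gene CCND2-AS1 lay under the same peak, and a ChIP peak has no strand, so the mark cannot be assigned to 1 of the 2 genes. Pol II was listed at CCND2 as 1 narrow inside peak per condition, of 639 bp in control (chr12:4289203-4289841) and of minimal width in knockdown (chr12:4289363-4289863), and these overlapped. They lay 15441 and 15601 bp into the gene. H3K4me3 at a gene end in both conditions with Pol II at neither end in either was found for 7.05% of all protein-coding genes.

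CCND3 had peaks at 4 places along its 115.1 kb span that were present in both conditions. At the 5′ end the H3K4me3 peak measured 5330 bp in control (chr6:42046926-42052255) and 5456 bp in knockdown (chr6:42046810-42052265), and the Pol II peak 1467 and 1652 bp. Those peaks also lay at the end of TAF8, a gene for a subunit of the general transcription factor TFIID, and the Pol II peaks lay 936 and 1204 bp from the outer CCND3 start window printed above. The inner CCND3 start window printed above lay under H3K4me3 and Pol II in both conditions. There the H3K4me3 peak measured 4665 and 5038 bp and the Pol II peak 3144 bp in control and 3537 bp in knockdown. Another inner CCND3 start window, chr6:41939156-41939455, lay under the same H3K4me3 peaks but under Pol II in knockdown alone. It was 184 bp from the nearest control Pol II peak. At the 3′ end the Pol II peak measured 6200 bp in control (chr6:41929503-41935702) and 7105 bp in knockdown (chr6:41930715-41937819), a stretch that also holds an end of BYSL, a ribosome assembly gene. The knockdown peak also overlapped a separate control Pol II peak of 1319 bp inside the gene (chr6:41937226-41938544). The fourth place, inside the gene, held small peaks. H3K4me3 measured 626 bp there in control and was minimal in knockdown, and Pol II measured 798 and 879 bp. A 1023 bp Pol II peak inside CCND3 was listed in knockdown alone, 17041 bp from the nearest control peak and over the start window of LOC105375059.

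The kinase gene CDK4, only 4.6 kb long, had H3K4me3 and Pol II peaks at or near both ends. The H3K4me3 peak at its 5′ end spanned chr12:57748284-57757563 in control (9280 bp, rank 273) and chr12:57749033-57757402 in knockdown (8370 bp, rank 341). Near its 3′ end another measured 6974 bp in control (chr12:57740238-57747211) and 3634 bp in knockdown (chr12:57743604-57747237), stopping 516 and 490 bp outside the gene. Pol II was listed as peaks of 6613 and 3032 bp in control and as a single peak of 10421 bp in knockdown (chr12:57743471-57753891, rank 386). For Pol II the number of bases covered differed less than the widest peak did. Over the gene and 5 kb around it, Pol II peaks covered 11007 bp (control) and 12167 bp (knockdown) and H3K4me3 peaks 13512 and 11912 bp. An end of TSPAN31 lay within 1 kb of the gene-end peaks of both kinds. For H3K4me3 alone, so did an end of MARCHF9 at the 5′ peak in both conditions and an end of AGAP2 at the 3′ peak in control. At this locus the signal of neighbouring genes therefore cannot be separated from that of CDK4.

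CDK6, the other D cyclin kinase and the longest gene of the set at 231.7 kb, had the most bases under H3K4me3 peaks (27533 in control and 21654 in knockdown, over the gene and 5 kb around it) and under Pol II peaks. Its 5′ H3K4me3 peak measured 15724 bp in control (chr7:92823475-92839198, rank 53) and 13676 bp in knockdown (chr7:92825600-92839275, rank 62). The 5′ Pol II peak measured 23734 bp in control (chr7:92816106-92839839, rank 42) and 20314 bp in knockdown (chr7:92819386-92839699, rank 60). Both were among the widest of their lists in both conditions and differed mainly on the side that lies inside the gene. The outer CDK6 start window printed above, a second CDK6 start window and that of CDK6-AS1 lay under all 4 of these peaks.

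**Figure D2:**
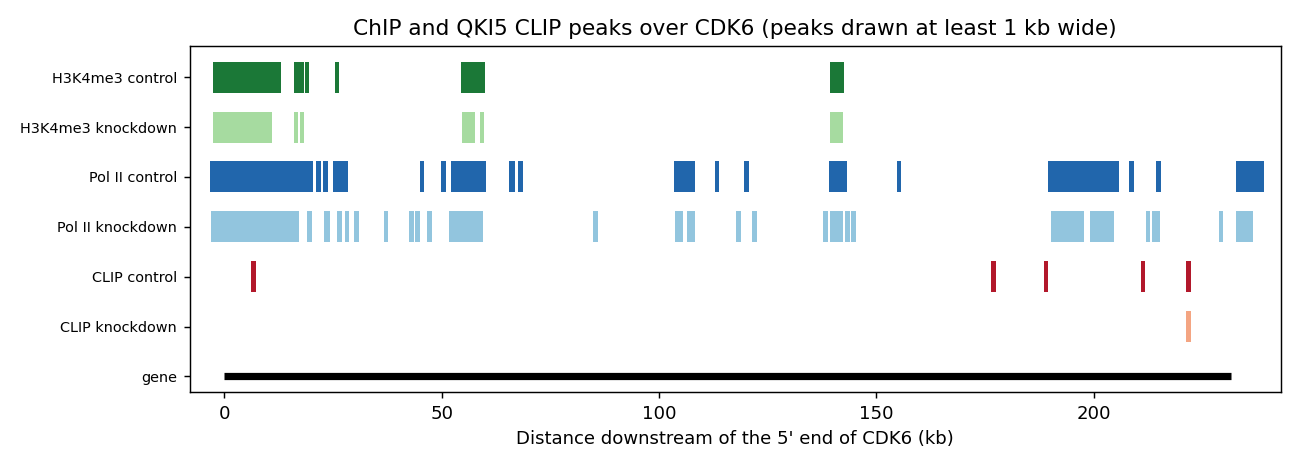
Peaks of H3K4me3, Pol II and QKI5 CLIP along CDK6 in control and knockdown cells, by distance in kb downstream of the 5′ end; each bar is 1 listed peak of a pooled list. Pol II was listed at 16 places inside the gene in control and 24 in knockdown, and the single knockdown CLIP peak overlaps a control one near the 3′ end.

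Inside CDK6, Pol II was listed at 16 places in control and 24 in knockdown. The widest control peak, 16376 bp at chr7:92630703-92647078 (rank 134), was overlapped in knockdown by peaks of 5645 and 7701 bp. Of the inside Pol II peaks, 9 in control and 12 in knockdown overlapped no peak of the other list, and these were narrow, at most 1376 bp in control and 936 bp in knockdown. These numbers are near the 55.9% and 57.3% of all peaks inside genes. Every inside Pol II peak wider than 1500 bp, 5 in control and 7 in knockdown, overlapped a peak of the other list. Over all genes, 11.7% of inside Pol II peaks of that width in control and 11.9% in knockdown overlapped none. A higher number of inside peaks in knockdown did not mean more covered sequence: over the gene and 5 kb around it Pol II peaks covered 73095 bp in control (30.2% of that stretch) and 65715 bp in knockdown (27.2%). Inside H3K4me3 peaks numbered 5 in each condition. The widest of them spanned 5545 bp in control (chr7:92776590-92782134) and lay over 2 knockdown peaks of 972 and 3049 bp. Past the 3′ end, and within 5 kb of it, lay another Pol II peak, 6372 bp wide in control and 3923 bp wide in knockdown.

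RB1, the gene for the substrate of these kinases, had one H3K4me3 and one Pol II peak at its 5′ end in each condition. The H3K4me3 peak spanned chr13:48302610-48306242 in control (3633 bp) and chr13:48302067-48306210 in knockdown (4144 bp). Pol II was listed at chr13:48302658-48305802 in control (3145 bp) and chr13:48302954-48305575 in knockdown (2622 bp). The start window of the divergent transcript RB1-DT lay under these peaks as well. An inside H3K4me3 peak (3969 bp in control, 4129 bp in knockdown) held the start window of LPAR6, a lysophosphatidic acid receptor gene nested in RB1. Small inside peaks were listed in control alone, of 805 and 971 bp for H3K4me3 and of minimal width for Pol II, while knockdown had 3 minimal Pol II peaks outside the gene. Of all control H3K4me3 peaks inside genes, 26.1% overlapped no knockdown peak.

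Of the CIP/KIP inhibitors, CDKN1A (p21) had its H3K4me3 peak and a Pol II peak inside the outermost gene span, at the start window printed above, and therefore had no H3K4me3 gene-end peak. The H3K4me3 peak measured 2982 bp in control (chr6:36678364-36681345) and 3413 bp in knockdown (chr6:36677950-36681362). The Pol II peak there measured 3134 bp in control (chr6:36678135-36681268) and 3699 bp in knockdown (chr6:36677751-36681449). The window of DINOL, a noncoding gene, lay under the H3K4me3 peak too. The conditions differed more at the 3′ end, where Pol II was listed over 1622 bp in control (chr6:36687745-36689366) and 5454 bp in knockdown (chr6:36687325-36692778). Control also had a 673 bp peak just outside the gene, under the wider knockdown peak, and a 1617 bp inside peak (chr6:36683707-36685323) with no knockdown counterpart. Over the gene and 5 kb around it, Pol II peaks covered 7046 bp in control and 8707 bp in knockdown.

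At CDKN1B (p27), 1 peak of each kind covered the whole 5.0 kb gene in both conditions. H3K4me3 spanned chr12:12714927-12730003 in control (15077 bp, rank 60) and chr12:12715340-12729782 in knockdown (14443 bp, rank 51). Pol II spanned chr12:12716184-12727064 in control (10881 bp, rank 354) and chr12:12715422-12727066 in knockdown (11645 bp, rank 295). Gene ends of GPR19, an orphan receptor gene, and APOLD1 lay within 1 kb of the same peaks. The Pol II gene-end widths of CDKN1B stood in a knockdown over control ratio of 1.07, against 0.552 at CCND1 and 3.36 at CDKN1A. These ratios are for unlike places. The CDKN1B peak covered the whole gene, the CCND1 peak lay at the end with H3K4me3 and the CDKN1A peak at the 3′ end.

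**Figure D3:**
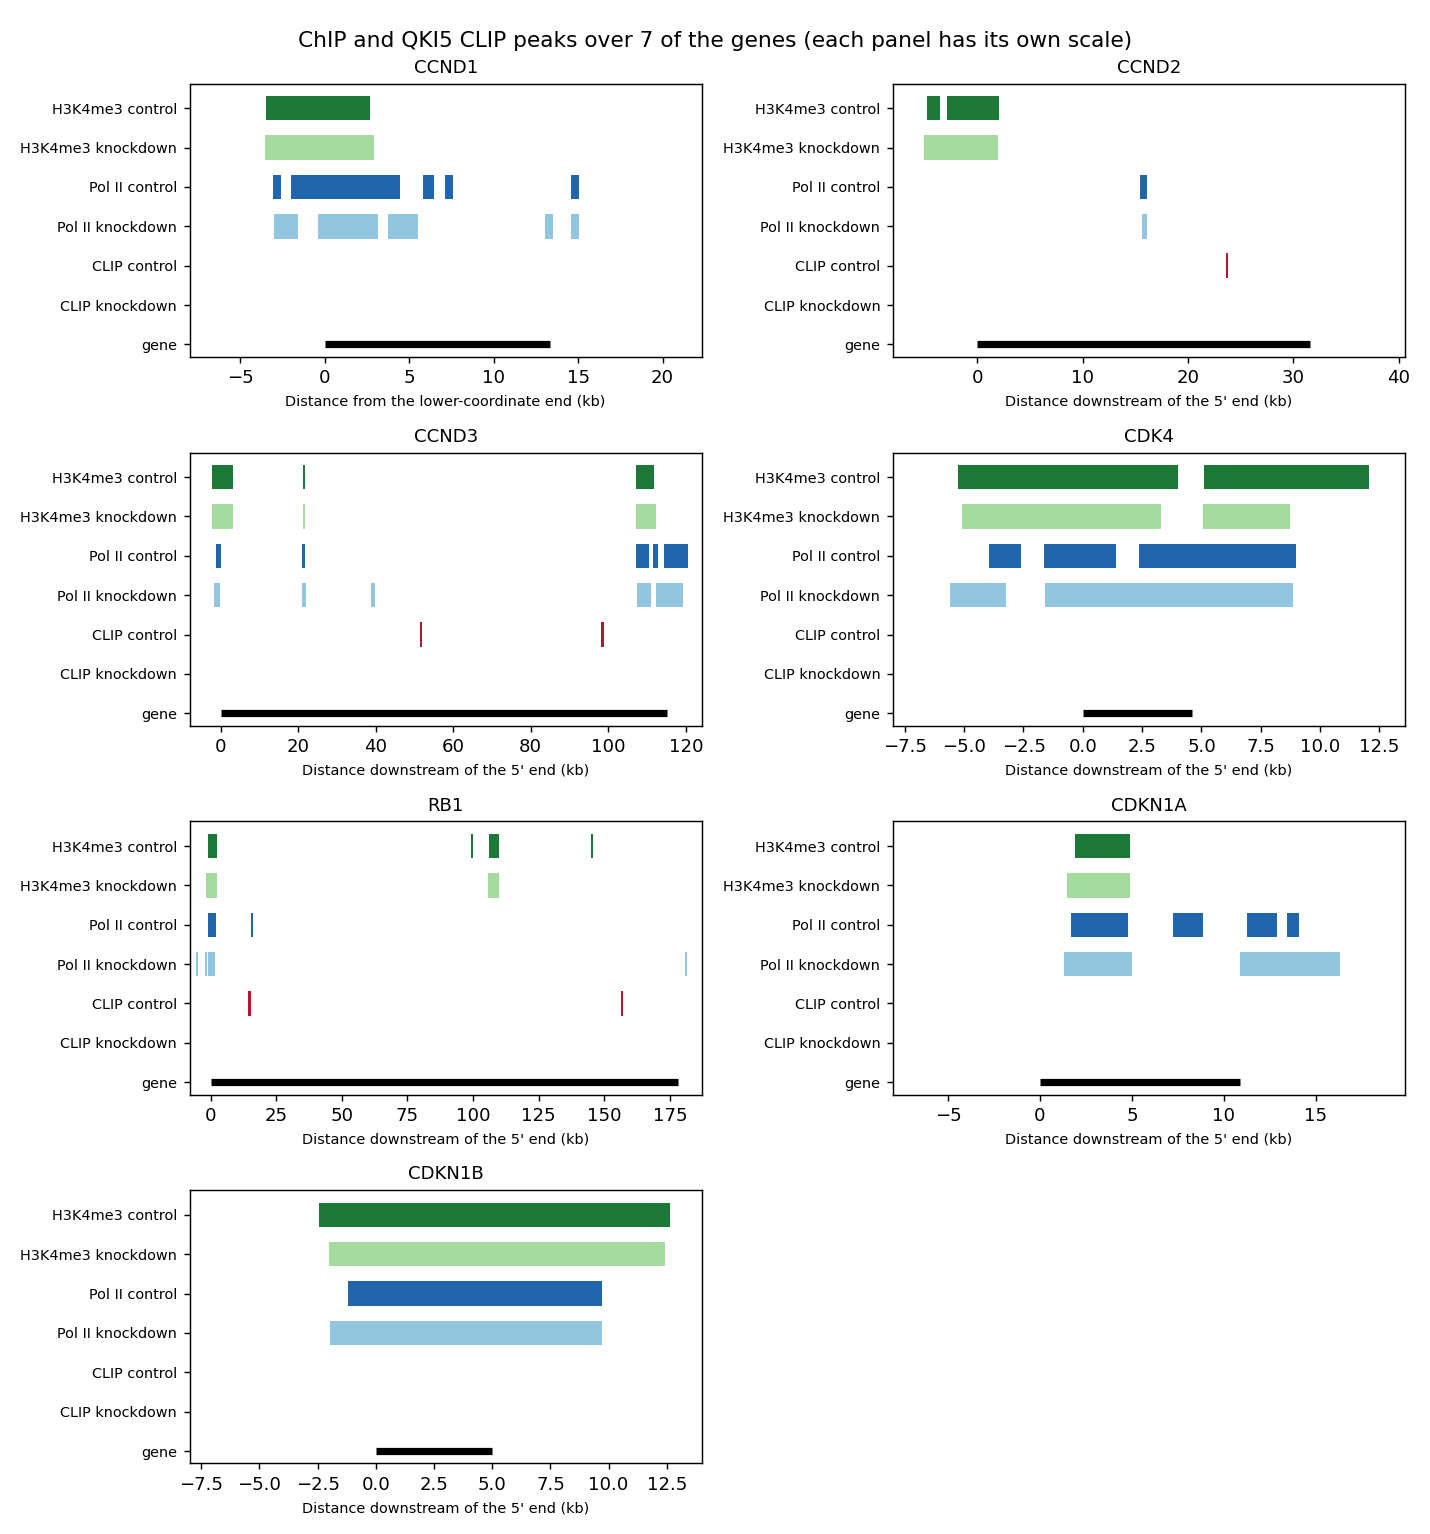
Peaks of H3K4me3, Pol II and QKI5 CLIP over CCND1, CCND2, CCND3, CDK4, RB1, CDKN1A and CDKN1B, by distance in kb from the 5′ end (from the lower-coordinate end for CCND1, whose strand the files used do not give); each bar is 1 listed peak, very narrow ones drawn wider than scale. H3K4me3 lies at a gene end in both conditions except at CDKN1A, where it lies 1901 bp (control) and 1487 bp (knockdown) inside the gene.

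The INK4 genes CDKN2A and CDKN2B, which lie side by side on chromosome 9, had no H3K4me3 or Pol II peak at their ends or inside them in either condition. The same was true of 23.2% of all protein-coding genes. The nearest peaks to the CDKN2B start window printed above lay 436491 to 437068 bp away, depending on the list. Both genes lay in a stretch with no peak in any of the 4 ChIP lists, chr9:21195794-22446045, 1.25 Mb long. Of the 50391 gaps between neighbouring peaks of the 4 lists together, 271 (0.538%) were as long or longer. The gap held 16 protein-coding genes, 12 of them interferon genes, with KLHL9, MTAP, CDKN2A and CDKN2B. There were 12 gaps in the genome that held as many genes. No CLIP peak was listed in it in either condition. MTAP, the gene of a housekeeping enzyme of methionine salvage, had neither H3K4me3 nor Pol II, whereas HACD4 and DMRTA1, beyond the gap on either side, had both in both conditions. At HACD4 the H3K4me3 gene-end peak measured 2207 bp (control) and 2179 bp (knockdown) and the Pol II peak 1800 and 1809 bp. DMRTA1 had H3K4me3 peaks of 2265 and 2526 bp and Pol II peaks of 626 and 1253 bp. Whether the cells carry this stretch of chromosome 9 was not tested.

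**Figure D4:**
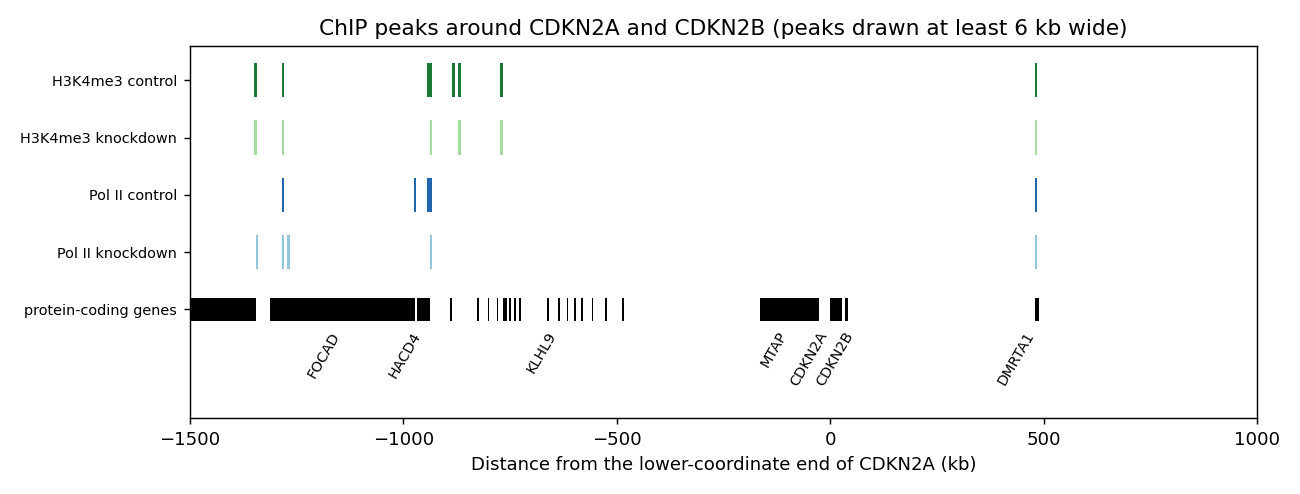
ChIP peaks and protein-coding genes around CDKN2A and CDKN2B, by distance in kb from the lower-coordinate end of CDKN2A; each coloured bar is 1 listed peak. No peak of any of the 4 lists lies in the 1.25 Mb around CDKN2A and CDKN2B, and DMRTA1 is marked on the far side.

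For the 8 genes with any peak, the bases covered in the gene and 5 kb around it were compared between conditions as knockdown over control. For H3K4me3 this ratio was 1.05 at CCND1, 1.12 at CCND2 and 1.04 at CCND3. It was 0.882 at CDK4 and 0.786 at CDK6. It was 0.882 at RB1, 1.14 at CDKN1A and 0.967 at CDKN1B. The ratio lay above 1 at the D cyclins and CDKN1A and below 1 at both kinases, RB1 and CDKN1B. Over 14925 protein-coding genes the median ratio was 0.971 and the middle 90% ran from 0.745 to 1.28, a range that holds all 8 genes. Of all 14925, 58.3% lay below 1.

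For Pol II the ratio was 0.901 at CCND1, 0.784 at CCND2 and 1.14 at CCND3. It was 1.11 at CDK4 and 0.899 at CDK6. It was 1.02 at RB1, 1.24 at CDKN1A and 1.07 at CDKN1B. CDK6 was below 1, and CCND3 and CDKN1A were above 1, for both H3K4me3 and Pol II. Over 13309 genes the median was 1.06, the middle 90% ran from 0.607 to 2.13, and all 8 genes lay within it. Of all 13309, 40.7% lay below 1. The Pol II ratio at CCND2 rests on the single narrow peak of each condition. The median over the 8 genes was 1 for H3K4me3 and 1.05 for Pol II. By the widest gene-end peak, 2 of the 14 ratios lay above the range of the middle 90% of genes. These were H3K4me3 at CCND2, 1.43 against an upper bound of 1.3, and Pol II at CDKN1A, 3.36 against 2.25. In covered bases neither of these 2 genes stood outside the range.

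**Figure D5:**
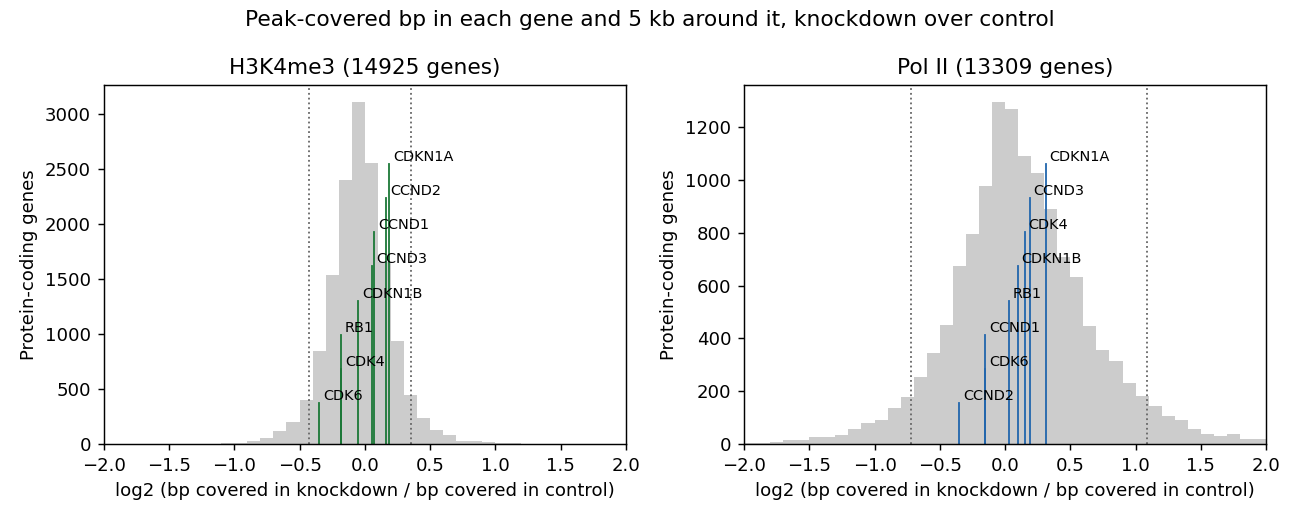
Grey bars count protein-coding genes by the log2 ratio of peak-covered bp (gene and 5 kb around it), knockdown over control, for H3K4me3 and Pol II; dotted lines bound the middle 90% of genes and coloured lines mark the 8 genes. All 8 lie between the dotted lines for both, with CDK6 lowest for H3K4me3 (0.786) and CCND2 lowest for Pol II (0.784).

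Partner genes of the pathway all carried H3K4me3 and Pol II. A list of 33 partner genes included the E2F and DP factors, the RB relatives RBL1 and RBL2, cyclins E and A with CDK2, further inhibitors, the CDK-activating kinase, subunits of the DREAM complex, SKP2, CKS1B and MDM2. All 33 had gene-end peaks of both kinds in both conditions, against 66.6% of all genes for H3K4me3 and 57.6% for Pol II. The list was chosen with earlier results of these data known, so this contrast is a description and not a test. The H3K4me3 peaks ran from 2582 bp at E2F5 to 32755 bp at CDKN2C in control, with a median of 4765 bp. In knockdown they ran from 2536 bp at E2F5 to 28621 bp at CDKN2C, with a median of 4591 bp. CDKN2C encodes p18, an INK4 protein like those of CDKN2A and CDKN2B. Its Pol II peak measured 32342 bp (control) and 24768 bp (knockdown). The knockdown over control ratio of covered bases for H3K4me3 was above 1 at 16 partners and below 1 at 17, from 0.594 at MNAT1 to 1.3 at TFDP1. For Pol II it was above 1 at 19 and below 1 at 14, from 0.471 at E2F6 to 2.62 at CDC25A. Over all protein-coding genes with a ratio, 58.3% were below 1 for H3K4me3 and 40.7% for Pol II, so these splits were not particular to the partners. The medians, 0.999 and 1.04, lay near those of all genes.

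QKI5 CLIP peaks were listed at 4 of the 10 genes in control cells, CCND2, CCND3, CDK6 and RB1, and at CDK6 alone in knockdown cells. Over all protein-coding genes, 13.9% had a control peak and 1.84% a knockdown peak. The 4 are the longest genes of the set. Among genes of at least 100 kb, to which CCND3, CDK6 and RB1 belong, 29.9% had a control peak. The control peaks at these genes numbered 14, which merged to 10 separate sites because neighbouring peaks adjoined. Per 100 kb of gene they came to 3.17 at CCND2, 2.61 at CCND3, 3.02 at CDK6 and 1.68 at RB1. The median over the 2795 genes with a control peak was 2.77.

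One CDK6 site differed from the other CLIP sites of these genes by its read number and by its presence in both lists. In control it spanned chr7:92614649-92614762 on the minus strand, 114 bp, with 77 reads (exact 95% Poisson interval 60.8 to 96.2, counting error only) and rank 60 of 7337 by reads. In knockdown it spanned chr7:92614646-92614762 with 76 reads (59.9 to 95.1) and rank 33 of 669. The site lay 9.73 kb from the 3′ end of CDK6. The authors' log2 enrichment over background was 4.55 in control and 5.61 in knockdown, a difference of 1.06. In each list the enrichment equalled the reads over a whole number, times a factor of 15.2 in control and 30.9 in knockdown, for 7282 of 7337 and 653 of 669 peaks within 1%. The factors differ by 1.02 on the log2 scale, and the inferred background reads at the site were 50 and 48. Nearly all of the difference in log2 enrichment is thus the difference in these list-wide factors, and the ratio of reads to background differed by 0.04 on the log2 scale. The rule linking reads and enrichment is an inference from the numbers, not a documented step. The authors' -log10 p was 400 in control and 15.66 in knockdown. Both values recur within each list, 400 at 80 control and 36 knockdown peaks and 15.66 at 205 and 93, and 15.66 is -log10 of 2.2e-16. These 2 values were therefore not ranked against each other.

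The other 13 control peaks had 7 to 13 reads, log2 enrichments of 5.30 to 6.73 and -log10 p from 7.53 to 11.9. None of them overlapped a knockdown peak. In the whole list, of 7044 control peaks with fewer than 20 reads, 42 (0.596%) overlapped a knockdown peak, against 59 of the 90 (65.6%) with 50 reads or more. For weak peaks, less binding in knockdown and a shorter knockdown list (669 against 7337 peaks) cannot be told apart.

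At CDK6 the weaker peaks lay at 4 sites. One pair of adjoining peaks, chr7:92829879-92829914 and chr7:92829915-92829987, each with 9 reads, lay 6.66 and 6.59 kb from the 5′ end and under the wide H3K4me3 and Pol II peaks of both conditions. The other sites were chr7:92625176-92625260 (a pair of adjoining peaks with 9 reads each), chr7:92647558-92647614 (11 reads) and chr7:92659578-92659647 (13 reads). The 11-read site began 480 bp from the 16376 bp Pol II peak of control. With 7 control peaks, CDK6 had a number that 73 of the 2795 genes with a control peak reached or passed.

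RB1 RNA had an adjoining pair at chr13:48318547-48318648 with 11 reads each and a single peak at chr13:48460369-48460392 with 7 reads. The pair lay 638 and 587 bp from the minimal Pol II peak that RB1 had in control alone (chr13:48319235-48319735). CCND3 RNA had an adjoining pair at chr6:41951452-41951574 and a peak at chr6:41998231-41998299, each with 8 reads. CCND2 RNA had 1 peak of 9 reads at chr12:4297442-4297520, 7.83 kb from the 3′ end. CCND1, CDK4, CDKN1A and CDKN1B RNA had none, nor had CDKN2A and CDKN2B.

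Of the 33 partner genes, 11 had a control CLIP peak and none a knockdown peak, against 13.9% and 1.84% of all protein-coding genes. All 33 had H3K4me3 and Pol II at an end, whereas all protein-coding genes include the 23.2% without any ChIP peak. No share matched for these marks or for gene length was taken for the partners, so an excess particular to them was not tested. The 11 were CCNH, CDK7, CDKN1C, CKS1B, E2F3, E2F6, LIN9, LIN52, RBL1, SKP2 and TFDP1, with 1 to 3 peaks each and 5 to 11 reads a peak. CCNH and RBL1 had 3 peaks each. CCNH encodes the cyclin of the CDK-activating kinase and RBL1 the RB relative p107.

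The cell label was checked on lineage markers. SPI1, CEBPA, LYZ, CD33, CD14 and ELANE, all monocytic or myeloid, had gene-end peaks of both kinds in both conditions. They belong to a list of 10 monocytic genes. In both conditions H3K4me3 was listed at the ends of 7 of these and Pol II at 6. FCGR1A and MPO had neither at their ends. At the gene ends, Pol II was listed at CSF1R in knockdown alone and at ITGAM in control alone. CSF1R, ITGAM and FCGR1A had inside peaks of H3K4me3 and Pol II in both conditions. CD4, which monocytes share with T cells, had both. CD8A had H3K4me3 in both conditions. The T cell gene CD3E, the B cell gene MS4A1, the erythroid gene HBB, the epithelial genes EPCAM and KRT18 and the hepatocyte gene ALB had no gene-end peak.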

How the data were processed

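H3K4me3 and Pol II ChIP-seq and QKI5 CLIP-seq were performed in THP-1 cells with sh-control or sh-QKI5, and the design text says that both replicates went into each of the 6 deposited peak lists. HOMER and GRCh38.p5 are named in the submitters' processing notes. How reads were aligned, peaks called and inputs used is not given in the sources used here. Every ChIP peak carries a deposited score of 1, which ranks nothing. The CLIP lists have no header. From their values, the columns deposited by the authors were read as −log10 p, log2 enrichment and a read number. These values are the authors' and rank peaks within a list only.

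Peaks of the autosomes, X and Y were assigned to the outer ends of RefSeq genes (GRCh38.p14, none of whose gene coordinates are printed) with Python 3.11.15, pandas 2.3.3, numpy 2.4.6 and scipy 1.17.1. Patch releases of GRCh38 leave chromosome coordinates unchanged. Control and knockdown peaks with at least 1 bp in common were called shared. CLIP genes were matched by symbol, identifier, then synonym. Widths and covered bases were compared without a test. Peak assignment was tested on simulated data. The strand of a gene came from its start windows or CLIP peaks.

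The members, the 33 partner genes and the markers were chosen with earlier results of these data known. All 10 genes are named, with the partners that carry a CLIP peak or lack a gene-end peak, and genes sharing a gene-end peak with a member. Other genes named as the extremes of a range, as holders of a start window under a peak or as neighbours of CDKN2A were chosen after their values were seen. Alternatives covered the distance from a gene end, the narrowest peaks, the overlap that counts as shared, stricter CLIP thresholds, merging of CLIP peaks and the measure of width. Sequences of CLIP sites, exons and introns were not analysed here, and a few listed genes are not reported here.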

Additional observations from a re-analysis of the deposited data

How the results depend on the processing

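Each list pools both replicates, so no replicate could be left out. No paired analysis was possible because each deposited list joins both replicates of its group and no result comes from a test. The 14 control CLIP peaks at the 10 genes fell to 5 at a −log10 p of at least 10 and to 5 at a minimum of 10 reads, and merged to 10 sites. The single knockdown CLIP peak, at CDK6, was present under every alternative run. The count of 7 genes with H3K4me3 at an end in both conditions rose to 8 at a distance of 5 kb or with inside peaks counted, each time by CDKN1A. The Pol II count of 7 became 6 when control and knockdown peaks had to overlap by 50% of each, without CDKN1A, and 8 with inside peaks counted. The inside Pol II count of 5 became 4 without peaks of the minimum width. Among the partner genes, the Pol II count of 33 became 32 without peaks of the minimum width. It was also 32 when control and knockdown peaks had to overlap by 50% of each. The H3K4me3 count of 33 partners was the same under every alternative run. Peak widths depend on how neighbouring signal was joined. In covered bases, a measure chosen after seeing the data, the knockdown over control Pol II ratio moved from 0.552 to 0.901 at CCND1 and from 3.36 to 1.24 at CDKN1A. At RB1 both ratios changed side of 1, H3K4me3 from 1.14 to 0.882 and Pol II from 0.834 to 1.02. Taking the widest peak within 5 kb of a gene end gave 1.74 for Pol II at CDKN1A. The depth of the samples is unknown, so whether depth sets a missing peak was not tested.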
